A study of Mus musculus with 6 samples.

Results

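The NF-κB genes examined here are 10 mouse genes, namely the transcription factor subunits Rela, Relb, Rel, Nfkb1 and Nfkb2, the inhibitors Nfkbia, Nfkbib, Nfkbie and Tnfaip3, and the kinase Ikbkb. They were chosen by name out of 22028 protein-coding gene models of GENCODE M21 (mm10), and CDK6 binding was read at each promoter, across the gene body and over 20000 bp to either side. Promoters reached from 2000 bp upstream of each transcript start to 200 bp past it. All 10 genes were found, and 66 of 56748 CDK6-bound regions overlapped their loci.

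ChIP-seq libraries came from mouse pre/pro-B cell lines of Cdk6-/- background that had been transformed with BCR-ABL(p185) and then transduced with HA-tagged CDK6. One group expressed the wildtype kinase (CDK6-WT, n = 2) and the other the kinase-inactive mutant (CDK6-K43M, n = 2), so that every cell lacked endogenous CDK6, carried the oncogene and overexpressed a tagged protein. Chromatin was crosslinked with DSG and formaldehyde and pulled down with an antibody against HA. The labels do not say whether replicates are separate lines or cultures, so the spread between them may be technical, and the comparison of the variants asks whether kinase activity alters where CDK6 sits.

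The 4 peak lists held 34729 to 39797 peaks each. Relative depth recovered from the peak statistics lay between 9.56 and 12.04 reads per kb of effective genome. Peaks that overlapped between lists were joined into regions, and a region in at least 3 of 4 lists was called bound by both variants, as the study defines it. A region in both lists of a variant and in neither list of the other was called unique to that variant. Peak strength is given as the percentile of the −log10 q of a peak within its own list, where 100 is the strongest peak, because the lists are not scaled to each other. Of the B lineage marker genes, 7 of 8 promoters carried a region bound by both variants, whereas none of the 4 T cell, 4 myeloid and 3 erythroid marker promoters had a peak in any list. A peak is no measure of expression.

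NF-κB is a family of dimeric transcription factors. RelA, RelB and c-Rel carry transactivation domains, whereas p50 and p52 are processed from the precursors encoded by Nfkb1 and Nfkb2. In resting B cells, dimers are held by IκB proteins. IKKβ, the product of Ikbkb, phosphorylates IκBα in the canonical pathway and thereby marks it for degradation. Released dimers bind κB elements, among others in the promoters of their own subunits and inhibitors, and A20, encoded by Tnfaip3, closes the loop as a ubiquitin-editing enzyme. NF-κB activity is known as a survival signal in B lineage cells. CDK6 has no DNA-binding domain of its own and reaches chromatin through other proteins.

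Because several of these promoters are textbook targets of NF-κB itself, the sequence under the CDK6 peaks is shown first. The following stretches are mm10 reference sequence within 100 bp of the highest summit of a region bound by both variants, written 5′ to 3′ on the strand of the gene and cut where an annotated UTR begins. Capitals mark matches to the κB consensus on either strand. The set covers strong promoters among the 10 genes and summits with a κB match. The first promoter region of Nfkb2 and the outermost one of Nfkb1 have their summit windows within annotated UTRs, so only short stretches from them follow.
Tnfaip3 promoter, chr10:19015411-19015547, minus strand: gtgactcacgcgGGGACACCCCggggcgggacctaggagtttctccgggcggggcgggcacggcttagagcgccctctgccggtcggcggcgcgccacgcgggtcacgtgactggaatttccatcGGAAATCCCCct
Nfkbia promoter, chr12:55491930-55492130, minus strand: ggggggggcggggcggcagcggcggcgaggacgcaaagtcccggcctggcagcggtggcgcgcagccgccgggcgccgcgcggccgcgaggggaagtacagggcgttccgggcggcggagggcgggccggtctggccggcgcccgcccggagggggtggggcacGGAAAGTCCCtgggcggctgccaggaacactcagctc
Nfkb2 second promoter region, chr19:46305457-46305657, plus strand: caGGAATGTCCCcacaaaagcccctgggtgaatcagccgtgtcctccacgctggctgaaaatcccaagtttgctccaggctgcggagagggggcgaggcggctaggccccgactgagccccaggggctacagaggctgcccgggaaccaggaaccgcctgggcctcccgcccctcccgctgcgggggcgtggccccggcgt
Nfkbie promoter, chr17:45555523-45555702, plus strand: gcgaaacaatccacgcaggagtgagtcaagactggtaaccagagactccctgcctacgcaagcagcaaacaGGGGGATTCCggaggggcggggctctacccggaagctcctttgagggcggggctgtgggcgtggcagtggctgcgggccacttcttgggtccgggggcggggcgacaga
Slc35b2 promoter downstream of Nfkbie, chr17:45563790-45563873, plus strand: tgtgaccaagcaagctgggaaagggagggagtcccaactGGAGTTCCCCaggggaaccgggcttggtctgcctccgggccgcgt
Rel promoter, chr11:23771097-23771297, minus strand: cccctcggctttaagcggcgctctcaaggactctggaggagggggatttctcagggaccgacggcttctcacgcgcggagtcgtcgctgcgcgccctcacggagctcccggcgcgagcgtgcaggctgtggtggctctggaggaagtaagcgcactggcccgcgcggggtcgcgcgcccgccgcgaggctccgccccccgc
Nfkb1 internal promoter, chr3:135608298-135608498, minus strand: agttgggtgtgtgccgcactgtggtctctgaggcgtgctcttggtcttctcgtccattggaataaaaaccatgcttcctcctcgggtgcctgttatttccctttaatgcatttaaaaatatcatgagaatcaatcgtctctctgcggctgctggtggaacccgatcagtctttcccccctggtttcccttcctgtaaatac
The last 2 stretches hold no match to the consensus within the window shown.

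Further κB matches inside promoter regions bound by both variants, of these and other genes among the 10, are shown with 10 bases to either side, since they include the elements closest to the gene starts.
Nfkb1, chr3:135691497-135691526, minus strand: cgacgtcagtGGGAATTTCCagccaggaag
Nfkb2, chr19:46304688-46304717, plus strand: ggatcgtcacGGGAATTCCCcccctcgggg
Nfkb2, chr19:46304716-46304745, plus strand: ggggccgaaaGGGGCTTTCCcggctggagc
Nfkbia, chr12:55492657-55492686, minus strand: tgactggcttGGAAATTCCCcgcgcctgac
Rel, chr11:23771041-23771070, minus strand: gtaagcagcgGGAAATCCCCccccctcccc
Nfkbib, chr7:28766496-28766525, minus strand: gggcgtgttgGGGAATTCCCgatagggcgg
Relb, chr7:19628361-19628390, minus strand: aacggagacgGGGGTTTTCCtgaggcatca
Rela, chr19:5637888-5637917, plus strand: ggcctgcggcGGAATCTCCCccctccccgc

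CDK6 occupied most of the NF-κB promoters with either variant. A promoter region bound by both variants was present at 9 of the 10 genes, against 41.3% of all protein-coding genes, and one found in all 4 libraries at 7 of 10, against 33.2%. The exception was Ikbkb, whose promoter was occupied in the replicate 1 lists only. Of all genes, 5.76% had such a promoter region and none bound by both. Nfkbib lacked a promoter peak in CDK6-WT replicate 2, and Nfkbie lacked one in CDK6-K43M replicate 2. No promoter of the 10 genes carried a region unique to a variant, which 0.935% of all genes did. With CDK6-WT, 10 and 8 of the 10 promoters had a peak in replicates 1 and 2, against 47.0% and 40.1% of all genes. With CDK6-K43M the numbers were again 10 and 8, against 48.5% and 39.4%.

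Where present, these peaks were close in strength to promoter peaks in general. The strongest promoter peak per gene had a median percentile of 75.7 and 65.0 with CDK6-WT and of 77.3 and 56.3 with CDK6-K43M, given here and below for replicate 1 and then replicate 2. Over all genes with a promoter peak the medians were 78.9, 59.6, 80.4 and 58.4 in the same order.

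Over the whole loci, 29 of the 66 regions (43.9%) were bound by both variants, close to the 40.5% of all regions, and each of the 10 loci had at least 1 of them, against 60.3% of all loci. Of these 29 regions, 11 lay at promoters, 3 in gene bodies, 4 in the upstream and 11 in the downstream flanks. Of the 18 outside the promoters of the 10 genes, 8 overlapped the promoter of a neighbouring gene, namely Sipa1, Clasrp, Fbxl15 and Psd, Mrps12 and Sars2, Slc35b2 or Hsp90ab1. Per 100 kb the 10 loci held 4.36 regions bound by both variants, against 1.91 over all protein-coding loci, and the median per locus was 3 against 1. A region unique to a variant was present at 1 of the 10 loci, against 5.49% of all loci. It was unique to CDK6-K43M, lay in an intron of Pus10 downstream of Rel (chr11:23727215-23727543) and was weak, at the percentiles 0.619 and 4.72 with 11 and 9 reads at the summit.

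**Figure D1:**
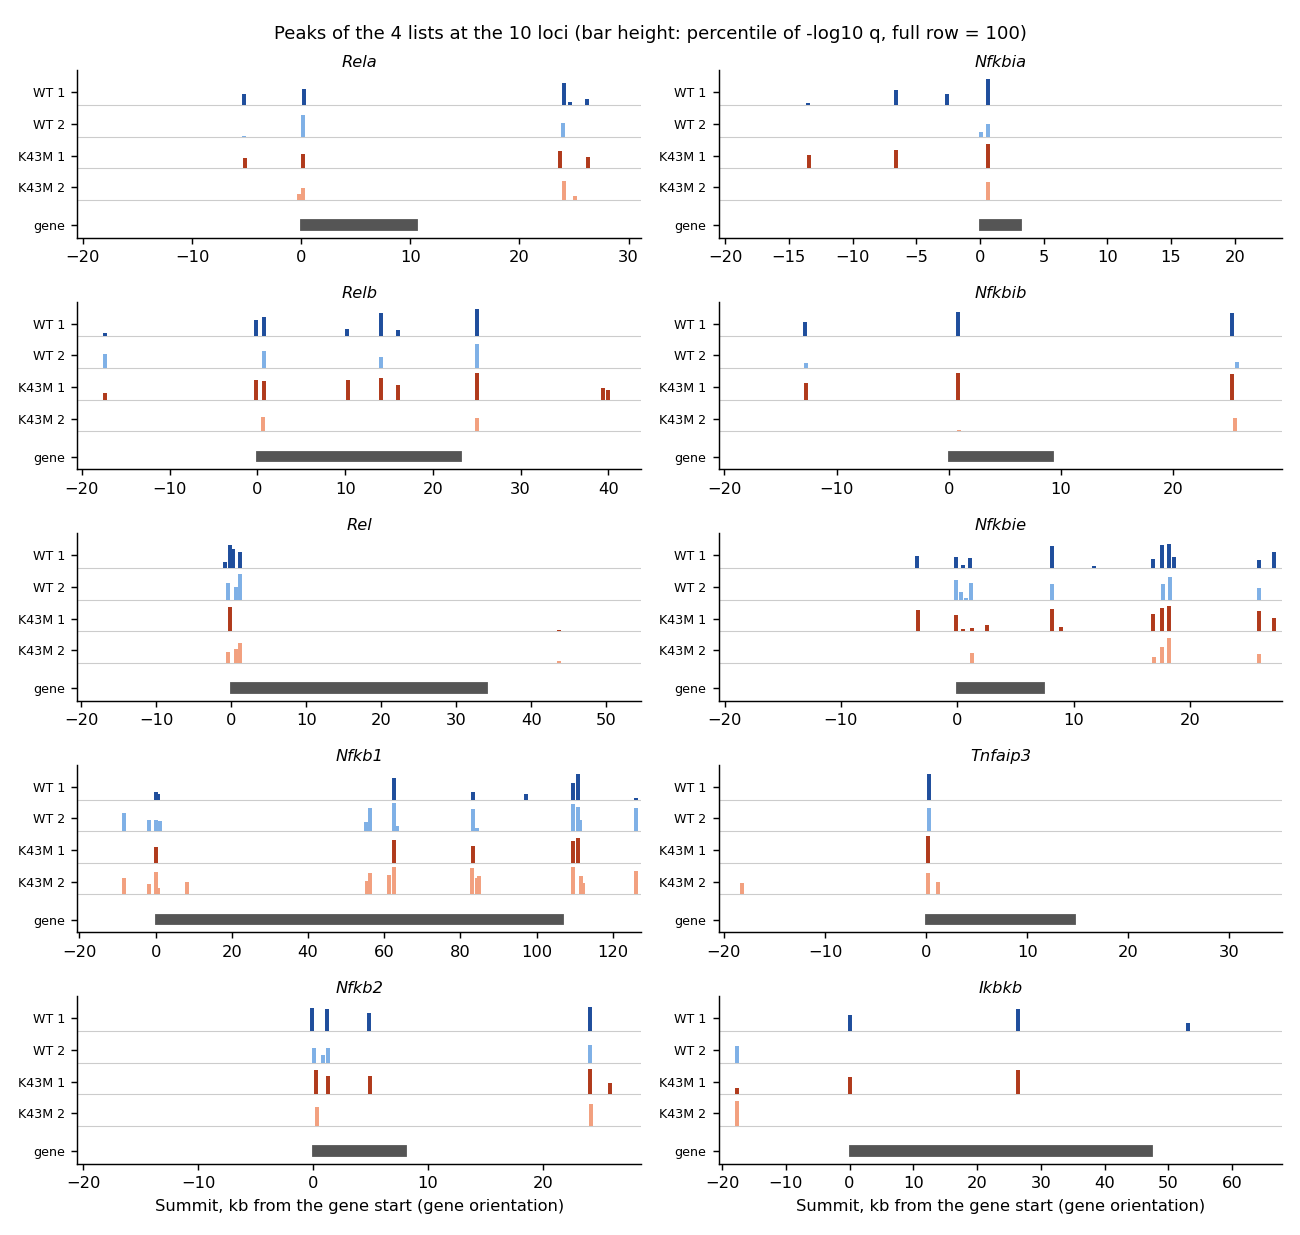
Peaks of the 4 lists across the loci of the 10 NF-κB genes, with 1 row per library, the distance of the summit from the gene start in kb on the x axis and the height of each bar proportional to the percentile of the peak in its own list. The grey bar is the gene. Rows of the same replicate number look most alike, as at Nfkb1 with 15 and 16 peaks in the replicate 2 rows and 8 and 5 in the replicate 1 rows.

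The transactivating subunits were each bound near their start. Rela (ENSMUSG00000024927.8, chromosome 19, 5637483 to 5648130, plus strand) encodes p65, the main activator of the canonical pathway. Its promoter region (chr19:5637137-5638054) had summits between 124 and 239 bp past the gene start in all 4 lists. The percentiles were 57.4 and 77.8 with CDK6-WT and 49.4 and 40.3 with CDK6-K43M, so that the variants did not overlap. Among the genes with a promoter peak in every list, Rela was the only one at which this held for the strongest promoter peak. The reads at the summit were 25 and 24 with CDK6-WT and 27 and 14 with CDK6-K43M, and read numbers over the genome background of each library did overlap between the variants. Another region bound by both lay 5202 bp before the gene start, at percentiles of 38.0, 0.422 and 34.2 in the lists other than CDK6-K43M replicate 2. A further one, with a peak in all 4 lists, lay 24066 bp past the start, at the promoter of Sipa1.

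Relb (ENSMUSG00000002983.17, chromosome 7, 19606217 to 19629438, minus strand) encodes the partner of p52 in the non-canonical pathway. Its main promoter region (chr7:19628274-19629018) lay 698 bp past the outermost start and 44 bp from the start of a shorter transcript, within an exon. This region stood at 68.2 and 59.7 with CDK6-WT and at 65.8 and 48.7 with CDK6-K43M. A neighbouring region at the outermost start (chr7:19629121-19629697) was found in the replicate 1 lists only, at 56.6 and 68.5, and 2 intronic regions showed the same split. The 68.5 was the strongest promoter peak of CDK6-K43M replicate 1 at Relb. An intronic region bound by both variants, 14079 bp into the gene, was at 83.5 and 38.7 with CDK6-WT and at 76.7 with CDK6-K43M replicate 1. The strongest site of the locus was not at Relb itself but in an exon of the neighbouring Clasrp (chr7:19604261-19604670), at 97.6 and 86.7 with CDK6-WT and 95.8 and 44.9 with CDK6-K43M.

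Rel (ENSMUSG00000020275.9, chromosome 11, 23736847 to 23770970, minus strand) encodes c-Rel, which is prominent in lymphoid cells. It had a single but broad region of 2538 bp around its only annotated start (chr11:23769460-23771997). The strongest peaks overlapping the promoter window had percentiles of 83.1 and 57.2 with CDK6-WT and of 86.1 and 47.4 with CDK6-K43M. The last of these had its summit 634 bp past the start, outside the window. The peak of that list with its summit inside the window stood at 38.3. Counted over the whole region, which reaches further into the gene, the percentiles were 83.1, 91.9, 86.1 and 71.6. The replicate 2 lists had their strongest Rel peak in the transcribed part, so the lower promoter values there depend on where the window ends.

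The precursor genes differed from each other. Nfkb2 (ENSMUSG00000025225.15, chromosome 19, 46304320 to 46312385, plus strand), which encodes p100 and p52, had 2 promoter regions bound by both variants. The first (chr19:46304127-46305054) was at the outermost start and stood at 83.5 and 50.1 with CDK6-WT and at 87.1 and 66.2 with CDK6-K43M. The second (chr19:46305076-46305831), at the starts of other transcripts, stood at 77.0 and 50.1 with CDK6-WT and 63.4 with CDK6-K43M replicate 1 and was missing from CDK6-K43M replicate 2. The first region holds the pair of κB stretches printed above, and 3 further matches lie in the second. With the overlapping match beside the first of these, Nfkb2 had 6 κB matches under its promoter peaks, the most among the 10 genes.

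Nfkb1 (ENSMUSG00000028163.17, chromosome 3, 135584655 to 135691547, minus strand), which encodes p105 and p50, had the most regions of the 10 loci (18) and all of the regions found only in replicate 2. Its locus had 8 and 15 peaks with CDK6-WT and 5 and 16 with CDK6-K43M. These replicate 2 regions numbered 6, and 90 of 22028 genes (0.409%) had at least as many, although the locus is also the longest of the 10 at 146893 bp. The region at the outermost start (chr3:135691307-135691836) was in all 4 lists, at 23.3 and 39.1 with CDK6-WT and 55.2 and 80.2 with CDK6-K43M. A stronger promoter region (chr3:135608092-135608712) lay at an internal start 83149 bp into the gene, at 25.3 and 79.5 with CDK6-WT and 57.7 and 93.4 with CDK6-K43M. Both were higher with CDK6-K43M within each replicate number. The variants did not overlap at the outermost start, where the summits held 13 and 15 reads with CDK6-WT and 22 and 21 with CDK6-K43M, but did at the internal start. In every list the internal start had the strongest promoter peak of Nfkb1. The share of all genes without overlap, given below, is for strongest promoter peaks and does not cover the outermost start.

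The strongest binding in all 10 loci outside promoters was at Nfkb1 too. A region 12468 bp from the nearest start, beyond the 3′ end (chr3:135580392-135582488), stood at 90.5 and 98.8 with CDK6-WT and at 89.5 and 98.9 with CDK6-K43M. It joins separate summits. The replicate 1 values are from summits 110851 and 110848 bp past the gene start, the replicate 2 values from 109548 and 109574 bp. Near the latter, replicate 1 stood at 59.5 with CDK6-WT and 77.0 with CDK6-K43M. Near the former, CDK6-WT replicate 2 stood at 87.8, below replicate 1. An intronic region 62563 bp into the gene (chr3:135628197-135629759) stood at 76.1 and 99.4 with CDK6-WT and at 82.0 and 99.8 with CDK6-K43M. Its summits held 33 and 61 reads with CDK6-WT and 38 and 70 with CDK6-K43M. At the intronic region and near the summit 109574 bp past the gene start, the replicate 2 libraries were the higher ones with either variant. This was the reverse of the order at the promoters of Relb, Rel, Nfkb2, Nfkbia and Tnfaip3. The next strongest regions with peaks in all 4 lists were those at Hsp90ab1 downstream of Nfkbie (mean percentile 86.6), Clasrp (81.2) and Fbxl15 downstream of Nfkb2 (79.7).

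Among the inhibitors, Tnfaip3 (ENSMUSG00000019850.11, chromosome 10, 19000910 to 19015657, minus strand) had the strongest promoter peak of the 10 genes by its mean over the lists. A20 removes activating ubiquitin chains upstream of the IKK complex. Its promoter region (chr10:19014368-19015894) stood at 93.2 and 82.2 with CDK6-WT and at 97.6 and 77.6 with CDK6-K43M, with 53 and 31 reads at the summit with CDK6-WT and 64 and 25 with CDK6-K43M. The replicate 1 libraries were thus the higher ones with either variant, and the mean difference between the variants was -0.0789 percentile points. The highest summit lay 180 bp past the outermost start, between the pair of κB matches printed above, which are centred 53 and 60 bp from it. Apart from this region, the locus had a single flank peak, 18242 bp upstream, in CDK6-K43M replicate 2.

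Nfkbia (ENSMUSG00000021025.8, chromosome 12, 55489410 to 55492647, minus strand) encodes IκBα, the inhibitor that NF-κB itself induces. The promoter region (chr12:55491866-55493077) spanned the outermost start, but its summits lay 613 to 639 bp past that start in each of the 4 lists, in an intron and upstream of the start of the other transcript. The percentiles were 94.3 and 43.9 with CDK6-WT and 87.8 and 64.0 with CDK6-K43M, with 41 and 15 reads at the summit with CDK6-WT and 40 and 16 with CDK6-K43M. Of its 3 κB matches, 1 was centred 69 bp from the highest summit and the others lay 24 and 268 bp before the outermost start. The reads separated the replicate numbers and not the variants. With protein-coding transcripts alone the mean difference between the variants turned from 6.78 to -10.3 percentile points, because the only peak of CDK6-K43M replicate 2 and the stronger of the 2 peaks of CDK6-WT replicate 2 then lay outside the window, and the latter kept its peak at 14.2. Upstream regions at 6589 and 13436 bp were found in the replicate 1 lists only.

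Nfkbib (ENSMUSG00000030595.15, chromosome 7, 28758251 to 28767512, minus strand) encodes IκBβ and showed the largest gap between replicate numbers. Its promoter region (chr7:28766280-28766867), which is shared with the divergent gene Sirt2, stood at 87.9 in CDK6-WT replicate 1 and at 95.7 in CDK6-K43M replicate 1. It was at 1.59 in CDK6-K43M replicate 2 and absent from CDK6-WT replicate 2. The summits held 34, 52 and 15 reads in the lists with a peak. The local background at these peaks was 1.53, 1.58 and 4.95 scaled reads in the same order. Its part in the gap was not tested.

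Nfkbie (ENSMUSG00000023947.8, chromosome 17, 45555703 to 45563169, plus strand) encodes IκBε. Its promoter region (chr17:45555455-45556307) had its highest summit 80 bp before the start and 25 bp from the centre of a κB match. The percentiles were 38.7 and 70.2 with CDK6-WT and 58.1 with CDK6-K43M replicate 1, and CDK6-K43M replicate 2 had no promoter peak. It did have a peak in the intronic region 1180 bp past the start (chr17:45556733-45557104), which was in all 4 lists at 33.7, 58.1, 8.72 and 33.6. The locus held 7 regions bound by both variants, a number that 3.88% of all genes reached or passed, and 4 of the 7 overlapped the promoters of Slc35b2 and Hsp90ab1.

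Ikbkb (ENSMUSG00000031537.15, chromosome 8, 22659212 to 22706589, minus strand), the canonical IκB kinase, was the least occupied promoter. The promoter region (chr8:22706176-22706842) stood at 56.6 in CDK6-WT replicate 1 and at 62.2 in CDK6-K43M replicate 1. An intronic region 26472 bp into the gene (chr8:22679855-22680412) was found in the same 2 lists, at 77.0 and 85.7. The opposite order was seen 17658 bp upstream (chr8:22724119-22724415), where a region bound by both was strongest in the replicate 2 lists, at 58.7 with CDK6-WT and 87.5 with CDK6-K43M, at 19.4 in CDK6-K43M replicate 1 and absent from CDK6-WT replicate 1.

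**Figure D2:**
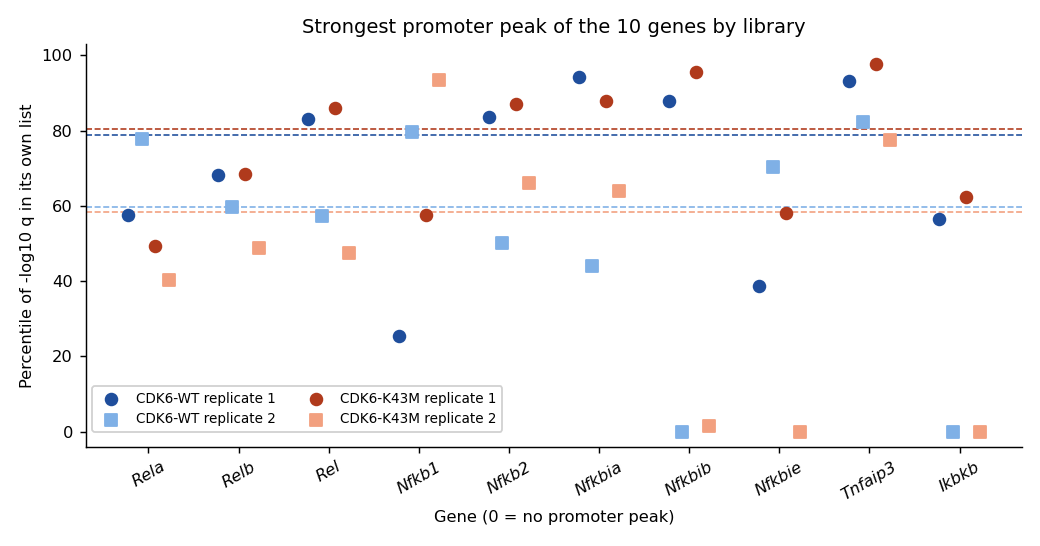
Percentile of the −log10 q of the strongest promoter peak in its own list for the 10 genes, with 1 point per library and 0 where no promoter peak was present. Dashed lines are the medians over all genes with a promoter peak, from 58.4 to 80.4. Circles (replicate 1) lie above squares (replicate 2) within both variants at most genes, and Nfkb1 has the reverse order.

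Comparing the variants gene by gene, kinase-inactive CDK6 was higher at 5 of the 10 promoters and lower at the other 5. Some of these calls were slight or rested on absent peaks. Tnfaip3 differed by -0.0789 percentile points, and Ikbkb had no promoter peak in either replicate 2 list. Over the 7312 genes with a promoter peak in every list, the median difference was 0.546 points, with quartiles of -6.92 and 8.19. The share of these genes in each direction is not given here. The direction was the same in both replicate numbers for Nfkb1, Nfkb2 and Nfkbib, which were higher with CDK6-K43M, and for Rela, which was lower. How many of all genes keep their direction in this way is not given here, so no excess can be read from these genes. At Nfkbib in replicate 2, the call rested on a percentile of 1.59 with CDK6-K43M against an absent peak with CDK6-WT. Rela differed by -22.8 percentile points, with -8.05 in replicate 1 and -37.5 in replicate 2. Its exact two-sided permutation p was 0.33, the smallest that 2 libraries against 2 can give, so no gene could have passed a threshold. Nfkb1 differed by 23.1 points (exact permutation p = 0.67), with means of 52.4 ± 38.3 with CDK6-WT and 75.5 ± 25.2 with CDK6-K43M (SD, n = 2). Nfkbie differed by -25.4 points (exact permutation p = 0.67), but the direction turned between replicate 1 (19.5) and replicate 2 (-70.2). Differences at Relb, Rel, Nfkb2, Nfkbia, Nfkbib, Tnfaip3 and Ikbkb lay between -5.35 and 9.85 points, and each was smaller than the SD of both variants.

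The replicate number divided the NF-κB promoters more often than the variant did, as it does genome-wide. Among the 7 genes with a promoter peak in every list, the variants did not overlap at 1 gene, against 10.4% of the 7312 genes of this kind. The replicate numbers did not overlap at 6 of 7, against 79.5%. Across all these genes the replicate 2 minus replicate 1 difference had a median of -20.8 points. Of the 6 genes, Relb, Rel, Nfkb2, Nfkbia and Tnfaip3 had this direction, with differences from -14.2 to -37.1 points, and Nfkb1 had the opposite one at 44.9. At Rel the separation depends on the window. Over its whole region the replicate numbers overlapped, at 83.1 and 86.1 in replicate 1 and 91.9 and 71.6 in replicate 2. What the replicate number marks is not stated, and its part in these values was not tested.

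**Figure D3:**
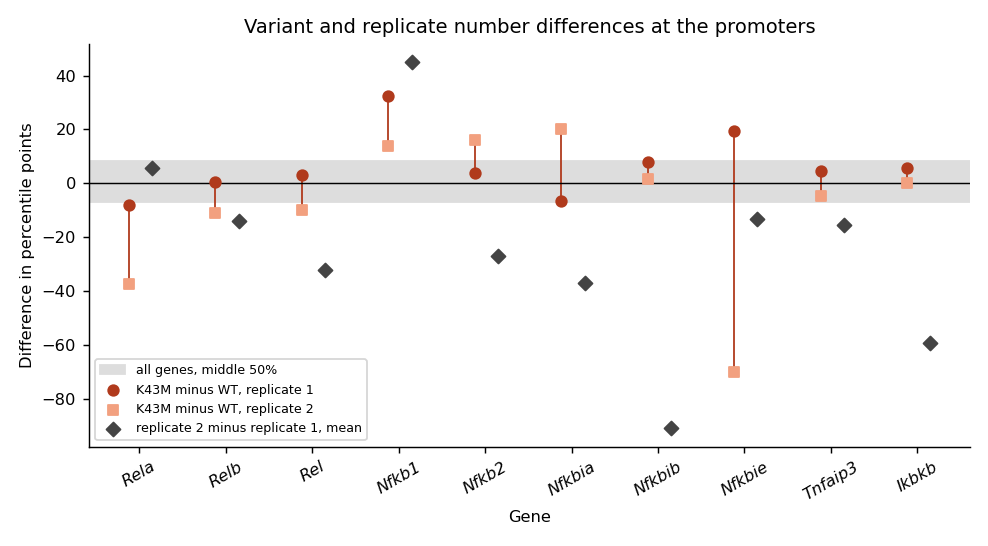
Difference in percentile of the strongest promoter peak for the 10 genes, with CDK6-K43M minus CDK6-WT within replicate 1 (circles) and replicate 2 (squares) joined by a line, and the mean replicate 2 minus replicate 1 difference as diamonds. The grey band is the middle 50% of the mean CDK6-K43M minus CDK6-WT difference over 7312 genes with peaks in all lists, from -6.92 to 8.19. Circles and squares are differences within a single replicate number and not such means. Nfkbib, Nfkbie and Ikbkb, with absent peaks set to 0, are not among those genes. Circle and square lie on the same side of 0 for Rela, Nfkb1, Nfkb2 and Nfkbib.

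Summed over the 10 loci, there were 51 and 43 peaks with CDK6-WT and 47 and 40 with CDK6-K43M. The means of 47 ± 5.66 and 43.5 ± 4.95 (SD, n = 2) differed by -3.5 peaks, with -4 in replicate 1 and -3 in replicate 2, which is less than the spread between replicates. These are raw counts from lists of unequal size. As shares of their own lists, the peaks in the loci were 0.145% and 0.124% with CDK6-WT and 0.118% and 0.107% with CDK6-K43M. By this measure the variants did not overlap, and the difference in shares was not tested. Of the 66 regions, 17 were found in the libraries of a single replicate number only, 11 in replicate 1 (16.7%) and 6 in replicate 2 (9.09%), compared with the 1 (1.52%) that was unique to a variant. Over all regions the shares were 12.96% and 11.04% for the replicate numbers, 0.359% for regions unique to CDK6-WT and 1.26% for those unique to CDK6-K43M, so this contrast is close to the background.

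The κB consensus was frequent under these CDK6 peaks. It occurred within 100 bp of the summit of 6 of the 29 regions bound by both variants, or 20.7%, against 3.22% of 22975 such regions on assembled chromosomes and 2.16% of windows of equal size 1000 bp away. Counted over the whole regions, the promoter peaks of the 10 genes held 20 matches, or 17 when overlapping matches were counted once. Each of the 9 genes with a promoter region bound by both had at least 1 match in it, compared with 16.8% of 9101 genes with such a region. The density was 8.74 matches per 10 kb in the regions bound by both of the 10 loci and 1.52 per 10 kb over the loci as a whole. Genome-wide it was 1.85 in all regions bound by both and 2.04 in those at promoters.

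The consensus was frequent in these promoters without regard to peaks as well. In short RefSeq promoter windows around the start (GRCm38.p6), which were matched for 7 of the 10 genes, the consensus was present at Rel, Nfkb2, Nfkbia, Nfkbie and Tnfaip3 and was not found at Rela and Nfkbib, whereas 4.51% of 32851 windows of all genes held it. The units differ, since a gene was counted when any of its windows matched. Nfkb2 had 3 windows, all with a match, and Tnfaip3 had 2, of which 1 matched. Summit windows of the 29 regions had a median GC content of 59.7%, against 54.2% over all regions bound by both, and the median width of the promoter regions was 853 bp against 721 bp. The part of GC content and width in the match counts was not tested. No match to the consensus was found within 100 bp of the highest summit at the promoter regions of Rela, Rel and Nfkbib, at the main promoter region of Relb, at the first of Nfkb2 or at the internal promoter of Nfkb1, and a match is no measurement of NF-κB binding.

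**Figure D4:**
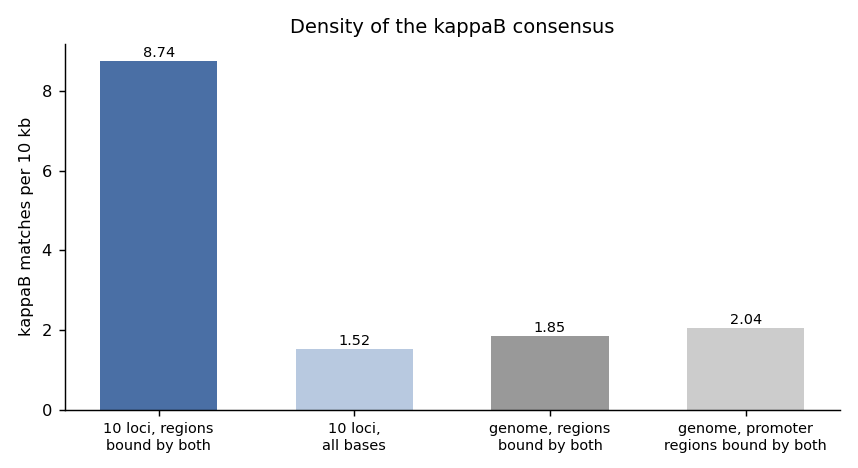
Matches to the κB consensus per 10 kb in regions bound by both variants within the 10 loci, in all bases of these loci, in all regions bound by both variants and in those of them at promoters. The bars stand at 8.74, 1.52, 1.85 and 2.04 and carry no error, since each is a count over fixed sequence.

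To place the 10 genes within the pathway, 50 further genes of NF-κB signalling were examined. A promoter region bound by both variants was present at 40 of them (80%), and one in all 4 lists at 34 (68%), against the 41.3% and 33.2% of all genes given above. All 9 genes of the ubiquitin-editing group, which includes the linear ubiquitin chain assembly factors Rnf31, Rbck1 and Sharpin and the deubiquitinases Cyld and Otulin, were bound by both variants. So were the 3 nuclear IκB genes Nfkbid, Nfkbiz and Bcl3, 8 of 9 kinase genes, 6 of 7 TRAF and cIAP genes and 6 of 8 target genes. Receptors and adaptors were bound at 6 of 11. The genes with no promoter peak in any list included Tnfrsf1a, Ltbr and Il1r1, which encode cytokine receptors, and the target gene Cd83.

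The highest mean percentiles in this list were those of Bcl2l1 (95.5), which encodes the survival protein BCL-xL, Birc2 (93.0), which encodes cIAP1, Tlr4 (91.6), the receptor for lipopolysaccharide, Traf6 (84.8) and Traf1 (83.8). Bcl2l1 stood at 97.6 and 95.8 with CDK6-WT and at 92.7 and 96.1 with CDK6-K43M, so that all 4 libraries were alike. Birc2 stood at 97.9 and 90.7 with CDK6-WT and at 99.9 and 83.5 with CDK6-K43M. A promoter region unique to CDK6-K43M was present at Tab2, an adaptor of the kinase TAK1, and at Traf5, where it lay beside a region bound by both. These were 2 of the 50 genes, against 0.935% of all genes with a promoter region unique to either variant. None was unique to CDK6-WT. Over all regions, too, those unique to CDK6-WT were the rarer ones, at 0.359% against 1.26% for CDK6-K43M. A κB match lay within the promoter region bound by both at 18 of the 40 genes (45%), compared with the 16.8% of all such genes. These 18 included 5 of the 6 bound target genes (Icam1, Bcl2l1, Gadd45b, Junb and Sod2) and 1 of the 8 bound kinase genes (Map3k7). They also included 2 of 3 nuclear IκB, 4 of 9 ubiquitin-editing, 3 of 6 receptor and adaptor and 1 of 6 TRAF and cIAP genes. The target group was listed as targets of NF-κB, so its matches are not independent of how the list was made.

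**Figure D5:**
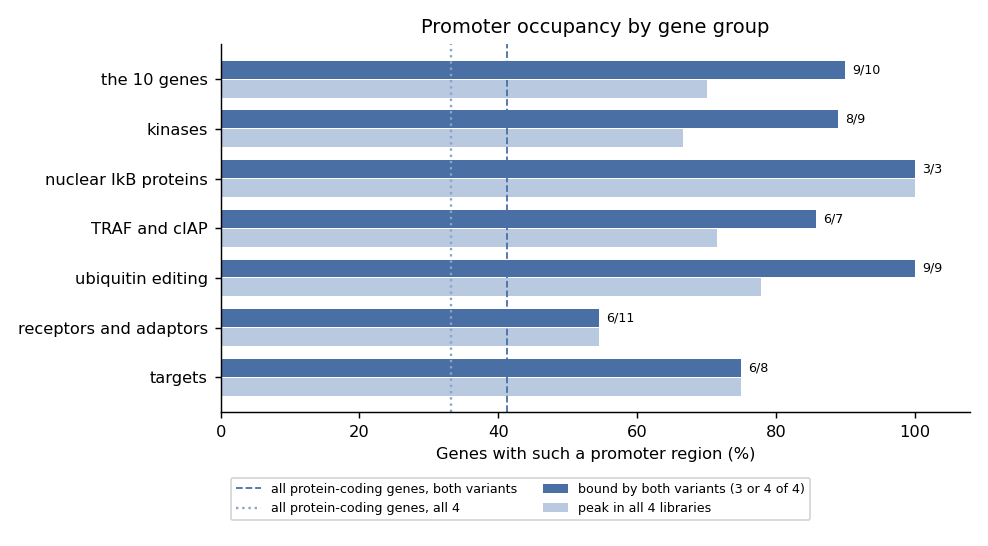
Share of genes with a promoter region bound by both variants (dark bars, with the number of genes) and with a peak in all 4 libraries (light bars) for the 10 genes and 6 groups of other NF-κB pathway genes. The dashed and dotted lines mark all protein-coding genes, at 41.3% and 33.2%, and the dark bars of the groups shown end to the right of the dashed line.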

How the data were processed

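CDK6 binding was measured by anti-HA ChIP-seq in 4 libraries, grouped by variant and replicate number from their titles. The 2 input libraries were not analysed here. Per the labels, the authors used Trimmomatic 0.36 for trimming, BWA 0.7.15 for alignment to mm10, SAMtools 1.3.1 and bedtools for filtering and MACS2 2.1.0 to call peaks, separately in each library. The deposited lists give a fold enrichment (a ratio), −log10 p and −log10 q at the summit, a score that follows the −log10 q, and other information, the summit offset.

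Summit reads and relative depth were solved from fold and −log10 p, and 100% of the peaks matched whole reads within 0.001 of the −log10 p. Peaks overlapping by at least 1 bp were merged, and the merging gave 0 wrong classes on 2000 simulated regions. Percentiles were ranks of the −log10 q within a list, with 0 for an absent promoter peak. Variants were compared by exact two-sided permutation over the 6 assignments of the libraries. Depth limits detection, since the weakest peaks in the 10 loci rested on 9 reads. All 10 genes are named. Of 50 other pathway genes, those without a promoter peak, with a variant-unique promoter region or among the 5 highest were named, whereas Traf, ubiquitin-editing, nuclear IκB and κB-bearing genes named as examples of a group were chosen after their values were seen. Among regions outside promoters, the rule named the 5 highest and variant-unique ones, and the others were named to describe each locus. A further group of the pathway list enters its totals but is not reported here. The members and lists were chosen with earlier results of these data known. GENCODE M21 was used, the study used M13. Alternatives were stricter −log10 q, the top 10000 peaks, wider merging, other promoter, locus and motif windows, ranking by fold, a replicate block and each library left out. Scripts ran in Python 3.11.15 (pandas 2.3.3, numpy 2.4.6, pysam 0.24.0).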

Additional observations from a re-analysis of the deposited data

How the results depend on the processing

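For 18 results, 163 alternative values were computed, of which 122 stayed within 1.5 times a reported count, within the SD between replicates or on the same side of 0 for a single gene. Among the rest, a minimum −log10 q of 10 left 3 of the 10 genes with a promoter region bound by both variants (Rel, Nfkb1 and Tnfaip3) and 2 with a promoter peak in all lists. In the loci it left 8 regions bound by both, 1 of them with a κB match at the summit, and 2 unique to a variant, and it left 15 of the other pathway genes. With the top 10000 peaks per list the numbers were 2, 1, 7, 1, 0 and 12 in this order, and 11 regions were in 1 replicate number only. A minimum of 5 gave 0 regions unique to a variant. All these settings admit fewer peaks. Shares of all genes at the stricter settings are not given here, and the 41.3% and 33.2% above hold for the full lists only. Whether the 10 genes stay above all genes at these settings is therefore not shown. Flanks of 50000 bp gave 55 regions bound by both, 33 in 1 replicate number only and a peak difference of 7, since they add sequence. That difference changed sign in other settings too, with 0.5 at a minimum of 5 and 1 at a minimum of 10, and spanned -7.5 to 0.5 with 1 library left out. Leaving out 1 library gave 5 to 15 regions unique to a variant, the 15 without CDK6-K43M replicate 1, because a single list then stands for a variant. The number of summits with a κB match then ranged from 3 (without CDK6-K43M replicate 1) to 7. Regions in 1 replicate number only could not be counted with a library left out.

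The CDK6-K43M minus CDK6-WT difference of the strongest promoter peak kept its sign in every setting for Rela only. It turned for Nfkbia with protein-coding transcripts alone (-10.3) and for Tnfaip3 when peaks were ranked by fold (5.41). Counted as summit reads over the genome background, an alternative chosen after the data were seen, it was 2.66 for Rel and -2.01 for Nfkbia. With 1 library left out it ranged from -15.2 to 4.55 for Relb, -22.8 to 15.96 for Rel, -3.96 to 50.2 for Nfkb1 and -6.82 to 26.5 for Nfkb2. The ranges were -18.4 to 31.98 for Nfkbia, -42.4 to 51.7 for Nfkbib, -54.4 to 3.69 for Nfkbie, -10.1 to 9.93 for Tnfaip3 and -28.3 to 33.9 for Ikbkb. The cause was not tested. With the replicate number as a block (a replicate block, pairing same-numbered libraries) the peak difference stayed at -3.5, and the exact permutation p could not go below 0.5. Same-numbered libraries did resemble each other, as given above, but what the replicate number stands for is not given in the sources used here, and 2 pairs are too few to establish a pairing. No anti-HA library of untagged cells and no input library was analysed here.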
